A study of Mus musculus with 12 samples.

Results

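Repressors that keep germline genes silent in somatic cells were followed in NE-4C cells across 4 groups of bulk mRNA-Seq libraries. The set holds 10 of the 57010 genes in the count table, chosen by name with earlier results of these data known: E2f6, Mga, Max, L3mbtl2, Pcgf6, Ehmt1, Ehmt2, Setdb1, Trim28 and Cbx3. All 10 were detected in every library and passed the filter on low counts, as did 16502 genes in all. NE-4C is a neural progenitor line from the brain of mouse embryos that lacked p53, so every group is without p53. WT is the parental line, and KO is a single line in which CRISPR-Cas9 removed an exon of Faf2, so that an effect of the Faf2 deletion and another difference between these cell lines cannot be told apart. The untreated groups, WT NO and KO NO, were collected without treatment, and the study's methods give no day for them. The induced groups, WT RA and KO RA, received all-trans retinoic acid (RA) at 1 µM for 24 h and were collected at day 3. An untreated group kept to day 3 is not described. An effect of RA and one of time in culture therefore cannot be told apart. The RA response below means the difference between the induced and the untreated groups. Each group had 3 libraries from independent passages.

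Germline genes encode proteins of meiosis and of germ cells, and many of them start from CpG-rich promoters that carry binding sequences of E2F6 or of the MGA and MAX dimer. At these promoters PRC1.6, a variant Polycomb complex, joins the DNA-binding proteins E2F6, MGA and MAX with L3MBTL2, PCGF6, a RING1 ubiquitin ligase and an HP1 protein. Histone H3 lysine 9 (H3K9) is methylated by EHMT1 and EHMT2 (GLP and G9a), which act as a pair, and by SETDB1, which is recruited by the corepressor TRIM28 (KAP1), and the methylated histone is bound by HP1 proteins such as CBX3.

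Binding sequences of these repressors were looked for in the 280 bases at the start of the canonical transcripts, 250 bases before it and 30 from it on, in GRCm39. The letters searched on both strands were TTCCCGC, the core sequence of E2F proteins, and CACGTG, the E-box that MGA and MAX can bind. They can share at most an end base, and either one was present in 12.1% of the 21757 promoters of protein-coding genes. Of 32 listed germline genes of the kind these repressors are known to hold silent, 18 (56.2%) held one of them, 8 the E2F core and 12 the E-box. Because the list was chosen as such genes, this share is not a result about these cells. Both germline promoters shown here hold a match and belong to genes whose level was higher in KO NO than in WT NO. Hormad2, Zcwpw1 and Rec8, also higher in KO NO, held neither sequence. Capitals mark the matched letters. In Stag3 (chr5:138278350-138278629, plus strand), a cohesin subunit of meiosis, the E-box lies just past the transcript start. In Tuba3a (chr6:125263004-125263283, minus strand), a testis alpha-tubulin, the E2F core lies 131 bases before the start.
Stag3: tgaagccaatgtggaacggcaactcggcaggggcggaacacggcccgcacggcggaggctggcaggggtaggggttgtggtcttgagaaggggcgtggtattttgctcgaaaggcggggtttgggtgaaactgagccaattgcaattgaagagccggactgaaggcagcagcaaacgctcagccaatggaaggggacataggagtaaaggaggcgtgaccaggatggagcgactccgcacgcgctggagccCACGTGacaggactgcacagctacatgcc
Tuba3a: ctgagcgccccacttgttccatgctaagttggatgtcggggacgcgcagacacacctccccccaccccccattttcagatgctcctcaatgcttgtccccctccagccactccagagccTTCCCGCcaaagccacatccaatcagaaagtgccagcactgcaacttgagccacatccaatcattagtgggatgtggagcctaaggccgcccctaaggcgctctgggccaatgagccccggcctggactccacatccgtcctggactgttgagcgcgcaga
A match describes the letters only and does not show that a protein binds there.

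Among the repressor genes themselves 4 of 10 held a match, the E2F core in Trim28 and Cbx3 and the E-box in Max and Ehmt2. The promoters of the 3 genes on which the comparisons turn are printed, all on the plus strand: E2f6 (chr12:16860697-16860976) and L3mbtl2 (chr15:81547840-81548119), where no match was found in this window, and Ehmt2 (chr17:35117028-35117307), where the E-box in capitals starts 60 bases before the transcript.
E2f6: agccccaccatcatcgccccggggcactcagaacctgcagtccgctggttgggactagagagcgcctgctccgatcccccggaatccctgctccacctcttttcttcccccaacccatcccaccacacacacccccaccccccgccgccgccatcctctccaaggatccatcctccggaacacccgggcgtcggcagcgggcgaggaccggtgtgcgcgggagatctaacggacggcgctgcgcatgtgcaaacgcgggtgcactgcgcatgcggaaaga
L3mbtl2: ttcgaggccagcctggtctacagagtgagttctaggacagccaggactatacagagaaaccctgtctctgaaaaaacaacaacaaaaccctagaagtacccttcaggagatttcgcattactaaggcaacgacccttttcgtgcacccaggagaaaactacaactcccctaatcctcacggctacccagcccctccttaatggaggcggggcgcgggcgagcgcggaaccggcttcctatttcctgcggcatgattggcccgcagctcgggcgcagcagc
Ehmt2: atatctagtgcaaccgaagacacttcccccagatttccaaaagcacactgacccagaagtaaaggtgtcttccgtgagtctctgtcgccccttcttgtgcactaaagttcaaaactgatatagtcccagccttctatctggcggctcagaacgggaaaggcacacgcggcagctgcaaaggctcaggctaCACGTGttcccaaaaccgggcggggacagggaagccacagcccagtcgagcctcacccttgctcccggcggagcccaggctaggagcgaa
No binding was measured in these cells.

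The libraries had totals of 17370049 to 30738694 estimated counts, which had been scaled to correct for transcript length. Levels are given as counts scaled to a common library total with TMM factors (CPM) and can thus be compared between genes as a per-length quantity. KO RA replicate 3 stood apart, with a TMM factor of 0.394 against 0.872 to 1.28 in the other 11 libraries, 62.5% of its counts in its top 100 genes against 37.1 to 50.4%, and 23.5% mitochondrial counts against 9.10 to 17.7%. It is included unless stated, and the differences that use it are given with and without it for the genes described. Faf2, the targeted gene, had 49.98, 38.8 and 35.9 CPM in WT NO and 21.0, 21.7 and 25.4 CPM in KO NO. In the RA groups its levels were 35.1, 37.8 and 49.0 CPM in WT and 36.1, 34.3 and 18.7 CPM in KO, so the groups overlapped there. The counts are of the whole gene, whose other exons were not deleted. The 5 neural progenitor markers (Nes, Sox2, Pax6, Otx2 and Cdh2) summed to 253 to 300 CPM in WT NO, 273 to 313 CPM in WT RA, 254 to 289 CPM in KO NO and 169 to 324 CPM in KO RA. KO RA replicate 3 had the lowest of these sums, and KO RA replicates 1 and 2 lay above all WT RA libraries. Among the 5 progenitor markers Pax6 was at 4.12 to 9.29 CPM in WT NO and 0.790 to 2.01 CPM in KO NO. Of 5 pluripotency markers, Pou5f1 was at 799 to 2773 CPM, Nanog at 43.6 to 173 CPM and Dppa4 at 1.62 to 153 CPM over the 12 libraries, whereas Esrrb reached 2.13 CPM at most and Zfp42 was at 0 in every WT library. KO RA replicate 3 held the lowest Pou5f1 and the highest Nanog and Dppa4 levels. Dppa4 was at 12.6, 18.1 and 1.62 CPM in WT NO and at 50.6, 43.2 and 46.0 CPM in KO NO. Nanog was at 43.6 to 58.2 CPM in WT NO and 66.6 to 84.2 CPM in KO NO, and Pou5f1 overlapped between them. The 5 germ cell markers (Ddx4, Dazl, Dppa3, Prdm1 and Nanos3) summed to 5.73 to 30.8 CPM in WT NO, 21.5 to 41.7 CPM in WT RA, 32.4 to 59.5 CPM in KO NO and 24.1 to 65.9 CPM in KO RA, with Dazl at 0 in every WT library and at 0.198 CPM at most in KO. The highest germ cell sum was that of KO RA replicate 3. Dppa3 was at 51.0 CPM there, beside 3.74 and 1.09 CPM in KO RA replicates 1 and 2. In bulk libraries, fewer cells of a type and less RNA per cell cannot be told apart.

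In WT NO, Trim28 was the most abundant of the 10 genes per length, and E2f6 the least. Before TMM scaling their means were 578 and 19.7 CPM, with Cbx3 (119 CPM) and Max (84.0 CPM) next after Trim28. Setdb1 (59.6 CPM), Mga (57.6 CPM) and Ehmt1 (55.5 CPM) had overlapping ranges, as had Ehmt2 (45.6 CPM) and L3mbtl2 (42.9 CPM). Pcgf6 (30.6 CPM) lay below these and above E2f6 in all 3 libraries. In KO NO, L3mbtl2 stood among the overlapping middle genes at 63.99 CPM, and Ehmt2 stood below Pcgf6, at 33.8 against 40.03 CPM, in 3 of 3 libraries. E2f6 was the lowest of the 10 genes in the means of all 4 groups. Among the genes tested, E2f6 stood at the 66.2nd percentile of level in WT NO and the 55.5th in KO NO, and Trim28 at the 98.7th and 98.8th.

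**Figure D1:**
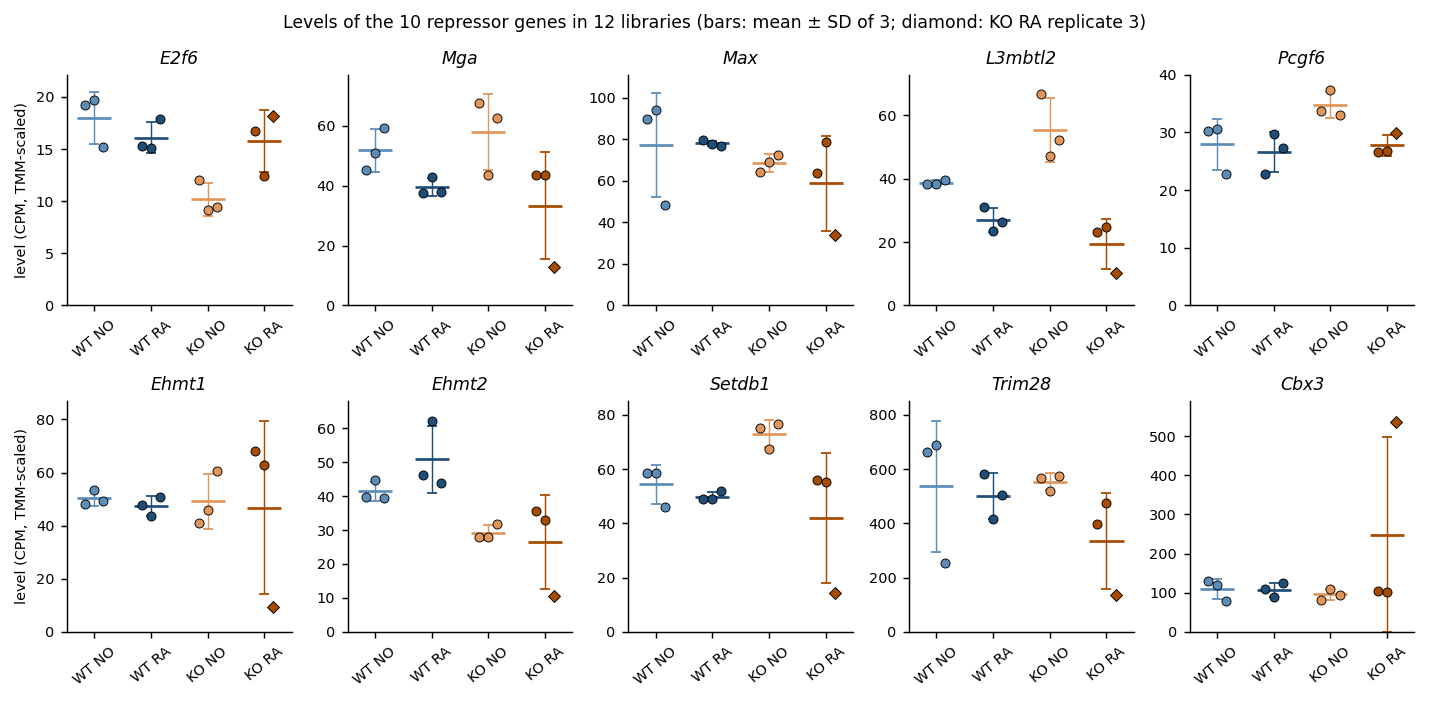
Levels of the 10 repressor genes (CPM after TMM scaling, vertical axis, from 0) in each library of WT NO, WT RA, KO NO and KO RA. Points are libraries, bars are the mean ± SD of 3 libraries, and the diamond is KO RA replicate 3, which was below the other KO RA libraries in 7 genes and far above them in Cbx3 (535 CPM).

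The question of the first comparison was whether untreated cells without Faf2 differed in these repressors from untreated WT cells. With KO NO set against WT NO, the quasi-likelihood test of edgeR called no repressor gene at an adjusted p under 0.05 (Benjamini-Hochberg), where it called 1.14% of all genes. Faf2, the targeted gene, was not called by this fit either, although its libraries did not overlap between the groups. Its log2 fold change was −0.87 with a standard error of 0.27 and an edgeR adjusted p of 0.179. Only E2f6 of the 10 had an unadjusted p under 0.05, as had 12.2% of all genes, and DESeq2 on the same 12 libraries called E2f6 alone, with 6.15% of all genes called. Without KO RA replicate 3, whose removal narrows the spread that all groups share in the fit, 2 were called (E2f6 lower and Setdb1 higher), with 8.78% of all genes called. The median log2 fold change of the 10 genes was 0.01, beside −0.02 for all genes, with 5 above 0 and 5 below. The groups were apart, with no library of one within the range of the other, in 3 genes that were higher in KO NO (L3mbtl2, Pcgf6 and Setdb1) and in 2 that were lower (E2f6 and Ehmt2). Over all genes, 15.5% were apart in the higher direction and 15.2% in the lower.

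E2f6 (ENSMUSG00000057469, chr12:16860874-16890766), the transcriptional repressor of the E2F family that brings PRC1.6 to the E2F core sequence, had 19.2, 19.7 and 15.2 CPM in WT NO and 11.99, 9.15 and 9.40 CPM in KO NO. All KO NO libraries were thus below the lowest WT NO library, and the mean was 10.2 ± 1.57 CPM against 18.0 ± 2.49 CPM (SD, n = 3). The fold change on the log2 scale was −0.82 with a standard error of 0.22, an edgeR adjusted p of 0.118. Without KO RA replicate 3 it was −0.81 with a standard error of 0.17 and an adjusted p of 0.0187. The median of the 591 tested genes on chromosome 12 was 0.04.

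L3mbtl2 (ENSMUSG00000022394, chr15:81548088-81572516), the MBT-domain subunit of PRC1.6 that binds nucleosomes, went the other way. Its levels were 38.4, 38.2 and 39.7 CPM in WT NO and 66.6, 47.2 and 52.1 CPM in KO NO, with no overlap. The log2 fold change was 0.51 with a standard error of 0.30, and the edgeR adjusted p was 0.559, or 0.0504 without KO RA replicate 3. The ratio of L3mbtl2 to E2f6 within a library, which does not depend on scaling between libraries, was 1.94 to 2.62 in WT NO and 5.16 to 5.55 in KO NO. Chadl, which overlaps L3mbtl2 on the opposite strand, was at 0.117 to 0.919 CPM in all libraries.

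Pcgf6 (ENSMUSG00000025050, chr19:47022052-47039418), the Polycomb ring finger protein particular to PRC1.6, had 30.2, 30.7 and 22.8 CPM in WT NO and 33.7, 37.4 and 33.1 CPM in KO NO. The groups did not overlap, but the log2 difference was only 0.32 with a standard error of 0.19, and the edgeR adjusted p was 0.585, or 0.180 without KO RA replicate 3. Mga (ENSMUSG00000033943, chr2:119727694-119800062), the large scaffold and T-box protein of the complex, overlapped between the groups. It was at 45.2, 50.8 and 59.3 CPM in WT NO and at 67.5, 43.7 and 62.7 CPM in KO NO. Max (ENSMUSG00000059436, chr12:76984043-77009009), the partner of MGA and of MYC, had 89.7, 93.8 and 48.5 CPM in WT NO and 64.1, 69.0 and 72.4 CPM in KO NO, so that WT NO replicate 3 lay below all KO NO libraries and the others above.

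The H3K9 methyltransferase genes differed in direction. Setdb1 (ENSMUSG00000015697, chr3:95229399-95264541) had 58.5, 58.5 and 46.1 CPM in WT NO and 75.1, 67.5 and 76.6 CPM in KO NO, apart and higher. Its log2 fold change of 0.43 with a standard error of 0.39 gave an edgeR adjusted p of 0.792, and 0.44 with a standard error of 0.11 gave 0.0368 without KO RA replicate 3. Cers2, which overlaps Setdb1 on the opposite strand, was at 67.3 to 89.0 CPM in WT NO and 80.6 to 95.6 CPM in KO NO. Whether reads were assigned by strand is not given in the sources used here. Ehmt2 (ENSMUSG00000013787, chr17:35117256-35133048), which encodes G9a, had 39.9, 44.7 and 39.6 CPM in WT NO and 27.9, 28.0 and 31.7 CPM in KO NO, apart and lower. The log2 fold change was −0.50 with a standard error of 0.36 and an edgeR adjusted p of 0.688, or 0.0530 without KO RA replicate 3. The 794 tested genes on chromosome 17 had a median of −0.47 in the same comparison, so that Ehmt2 did not stand out from its chromosome. The part of this chromosome-wide difference in the Ehmt2 value was not tested.

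Its partner Ehmt1 (ENSMUSG00000036893, chr2:24679940-24809696), which encodes GLP, was at 48.2, 53.5 and 49.1 CPM in WT NO and at 40.8, 45.7 and 60.8 CPM in KO NO, with overlap. The ratio of Ehmt1 to Ehmt2 was 1.20 to 1.24 in WT NO and 1.46 to 1.92 in KO NO. Trim28 (ENSMUSG00000005566, chr7:12733041-12764976) was at 663, 689 and 255 CPM in WT NO and at 568, 518 and 576 CPM in KO NO. WT NO replicate 3 was again the lowest. Cbx3 (ENSMUSG00000029836, chr6:51447082-51460691), which encodes HP1 gamma, had 129, 119 and 79.2 CPM in WT NO and 80.9, 110 and 95.1 CPM in KO NO, with overlap. For Mga, Max, Ehmt1, Trim28 and Cbx3 the log2 fold changes were 0.16, −0.17, −0.03, 0.05 and −0.19, with edgeR adjusted p of 0.935 or more. Genes on the opposite strand overlap Cbx3 (Hnrnpa2b1, at 409 to 894 CPM) and Trim28 (Zbtb45, at 3.76 to 18.7 CPM, and Chmp2a, at 31.7 to 112 CPM in 11 libraries and 430 CPM in KO RA replicate 3). WT NO replicate 3 was the lowest of its group in E2f6, Max, Pcgf6, Ehmt2, Setdb1, Trim28 and Cbx3, and the 10 genes summed to 655 CPM there against 1161 and 1197 CPM in the other WT NO libraries. Without that library the log2 fold change of Trim28 was −0.28 and that of Max −0.42.

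**Figure D2:**
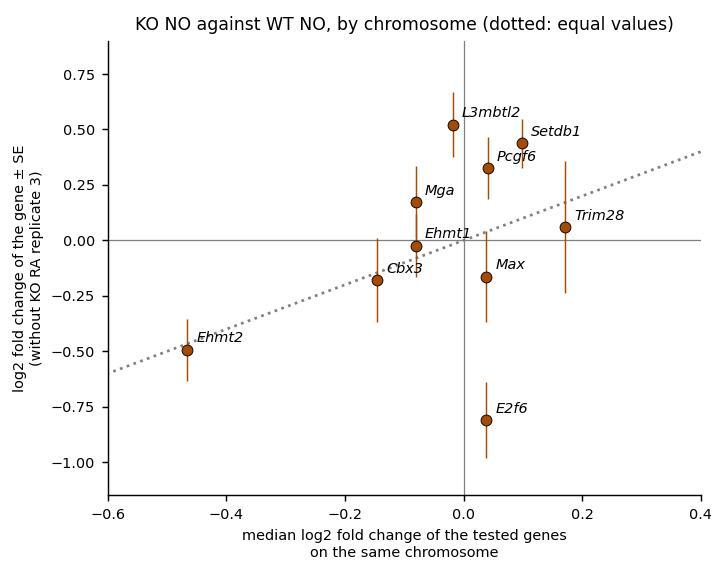
Log2 fold change of each repressor gene in KO NO against WT NO with its standard error (vertical axis, fitted without KO RA replicate 3) against the median log2 fold change of the tested genes on its chromosome, from the fit of all 12 libraries (horizontal axis). Ehmt2 lies on the dotted line of equal values at about the −0.47 of chromosome 17, and E2f6 at −0.81 and L3mbtl2 at 0.52 lie away from it.

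The same question at day 3 after induction was asked with KO RA against WT RA. No repressor gene was called by edgeR, where 1.24% of all genes were. Ehmt2 alone had an unadjusted p under 0.05, as had 17.6% of all genes, and DESeq2 on all 12 libraries called none of the 10 and 7.97% of all genes. The median log2 fold change of the 10 genes was −0.25 beside 0.09 for all genes, and −0.10 beside 0.01 without KO RA replicate 3. Ehmt2 was the only one of the 10 whose groups did not overlap (10.9% of all genes were apart and lower): it had 46.3, 62.3 and 43.9 CPM in WT RA and 35.7, 33.1 and 10.4 CPM in KO RA. The log2 fold change of Ehmt2 was −0.94 with a standard error of 0.37 and an edgeR adjusted p of 0.229, and −0.57 with a standard error of 0.16 and 0.0468 without KO RA replicate 3, where 9.85% of all genes were called. The median on chromosome 17 was −0.46.

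E2f6, lower in the untreated KO libraries, was at 15.3, 15.1 and 17.9 CPM in WT RA and at 16.7, 12.4 and 18.1 CPM in KO RA, with overlap. Its log2 fold change was −0.04 with a standard error of 0.22, and −0.15 without KO RA replicate 3. Pcgf6 and L3mbtl2 also overlapped, Pcgf6 at 22.8, 29.7 and 27.3 CPM against 26.6, 26.7 and 29.9 CPM, and L3mbtl2 at 31.04, 23.6 and 26.3 CPM against 23.3, 24.6 and 10.2 CPM. The log2 fold change of L3mbtl2 was −0.47 with a standard error of 0.30 and an edgeR adjusted p of 0.424, and −0.18 without KO RA replicate 3. That of Pcgf6 was 0.06, and −0.0020 without it. In Ehmt1, KO RA replicates 1 and 2 were above WT RA, at 68.1 and 62.9 CPM against 47.7, 43.5 and 50.8 CPM, and replicate 3 was at 9.21 CPM. Its log2 fold change was −0.01 with that library and 0.46 with a standard error of 0.16 without it, an edgeR adjusted p of 0.0909. The ratio of Ehmt1 to Ehmt2 was 0.698 to 1.16 in WT RA, 1.91 and 1.90 in KO RA replicates 1 and 2 and 0.886 in replicate 3. For Mga, Max, Setdb1, Trim28 and Cbx3 the groups overlapped as well. The log2 fold changes of these 5 genes were −0.24, −0.41, −0.25, −0.58 and 1.20 with KO RA replicate 3 and 0.13, −0.14, 0.15, −0.21 and −0.06 without it, so that Mga, Setdb1 and Cbx3 changed sign.

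**Figure D3:**
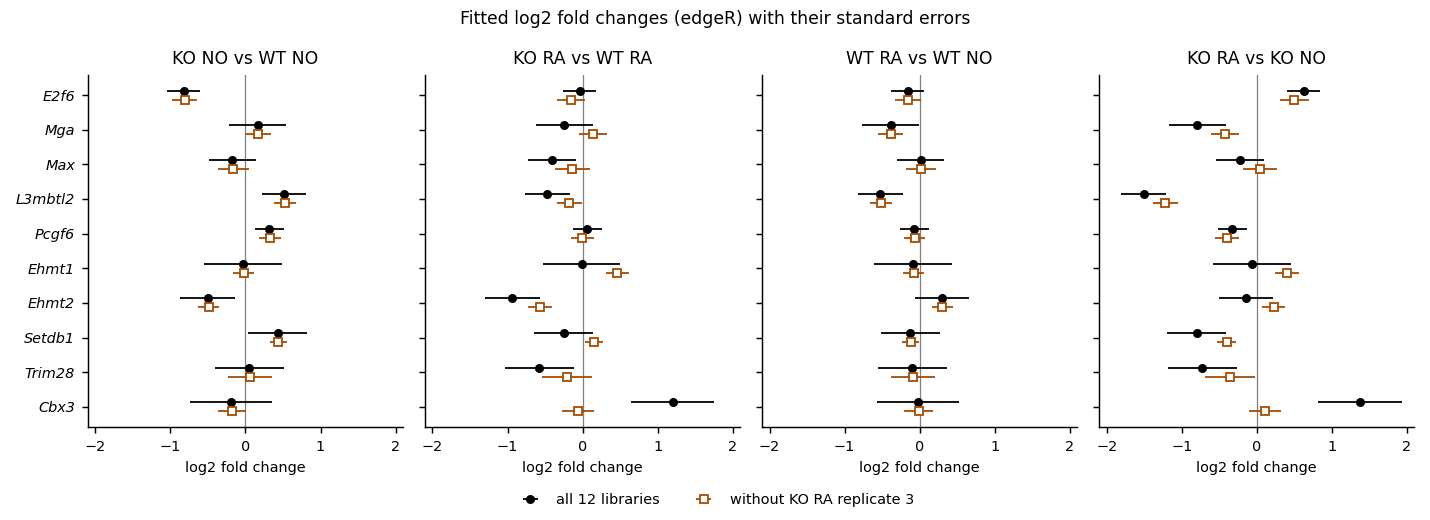
Log2 fold changes (horizontal axis) of the 10 repressor genes with their standard errors in the 4 comparisons, fitted by edgeR to all 12 libraries (filled circles) and without KO RA replicate 3 (open squares). L3mbtl2 lies farthest below 0 in KO RA against KO NO, at −1.51 and −1.22, and Cbx3 moves from 1.37 to 0.11 there when that library is left out.

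No repressor gene passed the threshold between the untreated and the induced WT cells. Between WT RA and WT NO edgeR called none of the 10 and 0.406% of all genes, none of the 10 had an unadjusted p under 0.05, against 12.5% of all genes, and DESeq2 on all 12 libraries called none of them and 5.6% of all genes. Their log2 fold changes ran from −0.52 in L3mbtl2 to 0.30 in Ehmt2, with a median of −0.09 beside −0.01 for all genes. Mga and L3mbtl2 had all WT RA libraries below all WT NO libraries, as had 14% of all genes. Mga was at 37.7, 43.0 and 38.0 CPM after RA, and its log2 fold change was −0.39 with a standard error of 0.38. L3mbtl2 had an edgeR adjusted p of 0.526, and of 0.0477 without KO RA replicate 3, where 10.8% of all genes were called. Max (79.4, 77.8 and 76.6 CPM), Setdb1 (48.9, 48.9 and 51.8 CPM), Trim28 (581, 415 and 505 CPM) and Cbx3 (110, 88.1 and 124 CPM) overlapped with WT NO.

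The RA response of KO cells held the one call of the set. Between KO RA and KO NO edgeR called L3mbtl2 lower, 1 of 10 genes, where 5.48% of all genes were called and 1.59% were called lower. The unadjusted p was under 0.05 in 3 of the 10 (L3mbtl2, E2f6 and Cbx3) and in 25.2% of all genes. The level of L3mbtl2 went from 66.6, 47.2 and 52.1 CPM in KO NO to 23.3, 24.6 and 10.2 CPM in KO RA, and the groups were far apart. Its log2 fold change was −1.51 with a standard error of 0.30 and an edgeR adjusted p of 0.0183. Without KO RA replicate 3, the lowest of the libraries, it fell by 1.22 on the log2 scale with a standard error of 0.17 and an adjusted p of 0.00157, and 16% of all genes were called, 7.54% lower. edgeR on the 6 libraries of these groups alone did not call it, nor did the fits that left out any of the 3 KO NO libraries, and the adjusted p ranged up to 0.152 over all alternatives. The mean of L3mbtl2 in KO RA was 19.4 ± 7.97 CPM (SD, n = 3), or 24.0 CPM over replicates 1 and 2, beside 27.0 ± 3.74 CPM in WT RA. The comparisons share the KO NO libraries, so these differences are not independent of each other.

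E2f6 moved in the opposite direction, from 11.99, 9.15 and 9.40 CPM to 16.7, 12.4 and 18.1 CPM, with all KO RA libraries above all KO NO libraries (13.2% of all genes were apart and higher). Its log2 fold change was 0.63 with a standard error of 0.22 and an edgeR adjusted p of 0.121, and 0.50 with an adjusted p of 0.1004 without KO RA replicate 3. DESeq2 on all 12 libraries called E2f6 and L3mbtl2 here, and 15.9% of all genes. The ratio of L3mbtl2 to E2f6 was 5.16 to 5.55 in KO NO and 1.40, 1.99 and 0.563 in KO RA, and the values for WT RA were 1.47 to 2.03.

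Besides L3mbtl2, 4 genes had all KO RA libraries below all KO NO libraries (Mga, Pcgf6, Setdb1 and Trim28), beside 16.9% of all genes. Setdb1 went from 75.1, 67.5 and 76.6 CPM to 56.0, 55.4 and 14.2 CPM, and its edgeR adjusted p was 0.227, or 0.0522 without KO RA replicate 3. Mga reached 43.6, 43.6 and 12.9 CPM, just under the lowest KO NO library at 43.7 CPM. Trim28 reached 397, 474 and 134 CPM, with a log2 fold change of −0.73 and a standard error of 0.46, or −0.36 without replicate 3. Pcgf6 had a log2 fold change of −0.33 with a standard error of 0.19, and Mga one of −0.79 with 0.38. Leaving out KO RA replicate 3 gave −0.39 and −0.42. Max, at 63.7, 78.6 and 33.9 CPM in KO RA, overlapped with KO NO, as did Ehmt1, Ehmt2 and Cbx3. The median of the 10 genes was −0.27 beside 0.11 for all genes, and −0.16 beside −0.02 without KO RA replicate 3. Summed markers of other cells were higher after RA. The sum of 6 neuron markers, none at 0, was 69.4 to 87.1 CPM in KO NO and 141 to 203 CPM in KO RA. That of 5 mesenchymal markers was 32.0 to 40.1 CPM and 73.7 to 172 CPM. KO RA replicate 3 had the highest neuron sum and the lowest mesenchymal sum of its group. Stmn2 alone was at 164 CPM in that library, whereas Tubb3, Map2 and Dcx were lower there than in KO RA replicates 1 and 2. In WT the neuron markers went from 77.5 to 107 CPM to 138 to 158 CPM, and the mesenchymal markers from 19.2 to 52.5 CPM to 72.4 to 79.0 CPM. Single markers differed: the neuron marker Rbfox3 fell from 1.52, 1.27 and 2.06 CPM in KO NO to 0.451, 0.783 and 0.0990 CPM in KO RA. Rbfox3 was also lower in WT RA than in WT NO. The mesenchymal marker Twist1 overlapped between KO NO and KO RA. The part of these markers in the fall of L3mbtl2 was not tested.

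Whether the RA response differed between KO and WT cells was tested with the interaction term. No gene of the set was called, and edgeR called 0% of all genes, whereas 2 repressors and 8.62% of all genes had an unadjusted p under 0.05. These were E2f6, with a log2 difference of responses of 0.79, a standard error of 0.31 and an adjusted p of 0.520, and L3mbtl2, with −0.98, 0.42 and 0.554. DESeq2 on all 12 libraries called none of the 10 and 1.87% of all genes. Without KO RA replicate 3 the values were 0.66 and −0.70, with edgeR adjusted p of 0.201 and 0.127, and 1.34% of all genes were called. The fall of L3mbtl2 in KO cells was therefore not shown to differ from its change in WT cells.

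The values of KO RA replicate 3 set much of the spread. Against the mean of the other KO RA libraries on the log2 scale, Cbx3 was higher by 2.37, E2f6 by 0.32 and Pcgf6 by 0.16. The other 7 genes were lower there: Max fell by 1.052, L3mbtl2 by 1.19, Ehmt2 by 1.68, Trim28 by 1.69, Mga by 1.72, Setdb1 by 1.94 and Ehmt1 by 2.76. The median over all tested genes was −0.23, and it depended on transcript length: 0.99 in genes with a canonical transcript up to 1000 nt, 0.26 up to 2000 nt, −0.22 up to 3000 nt, −0.53 up to 5000 nt and −0.88 beyond. The 10 genes have canonical transcripts of 1956 nt (Max) to 13946 nt (Mga), and the 5 longest of them, Mga, Ehmt1, Setdb1, Ehmt2 and L3mbtl2, were all lower in this library. Against the median of their own length class these 7 genes were lower by 0.66 (L3mbtl2) to 1.88 (Ehmt1), and Pcgf6, E2f6 and Cbx3 were higher by 0.39, 0.55 and 2.59. For Cbx3 the value of 535 CPM, beside 105 and 102 CPM, set its log2 fold change of 1.37 in KO RA against KO NO, an edgeR adjusted p of 0.161. Its 8 annotated processed copies took 3.97 to 5.90% of the counts of Cbx3 and these copies together, so the split of reads among them leaves the Cbx3 level uncertain.

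**Figure D4:**
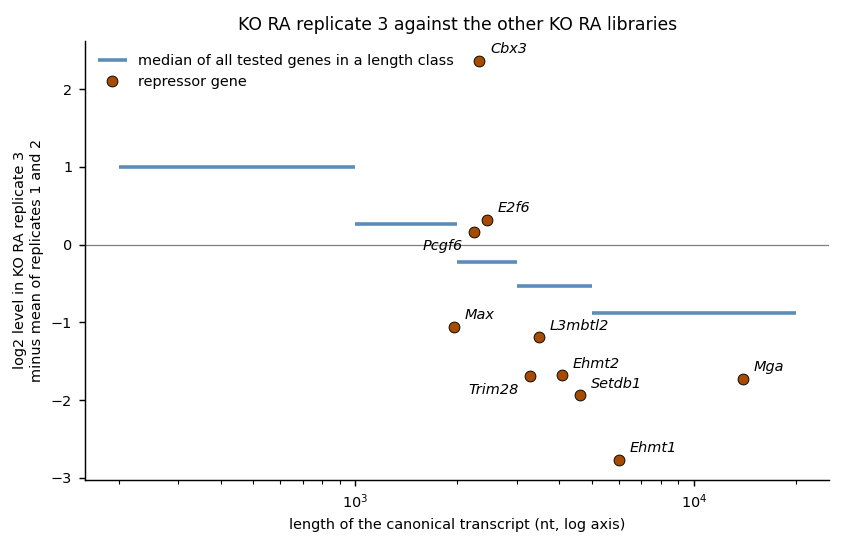
Log2 level in KO RA replicate 3 minus the mean of the other KO RA libraries (vertical axis) against the length of the canonical transcript in nt (log axis). Points are the 10 repressor genes, and horizontal lines are medians of all tested genes in 5 length classes, which step down from 0.99 to −0.88.

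Within groups the median coefficient of variation of the 10 genes was 13.7% in WT NO, 11.3% in WT RA and 11.5% in KO NO, beside 24.2%, 17.8% and 14.2% over all tested genes, and 52.9% beside 49.5% in KO RA. The 10 genes stood at the 55.5th percentile of level or above in each group, and their spread was not compared with that of genes of like level. Above the median of all genes were 2 of the 10 in WT NO (Max and Trim28), 1 in WT RA (Ehmt2), 5 in KO NO (E2f6, Mga, L3mbtl2, Ehmt1 and Cbx3) and 6 in KO RA. As a description over the 12 libraries, which share the group differences and the library that stood apart, Max and Trim28 had a Pearson correlation of log2 level of 0.94, and of 0.83 over 11 libraries. Of the 45 pairs of repressor genes, 12 correlated above 0.7 over 12 libraries and 5 over 11, and 18 changed sign between these sets. The genes whose pattern was most like that of L3mbtl2 were Klhl21 (0.988), G6pdx (0.986), Oaz1 (0.970), Pwp2 (0.969) and Nmt2 (0.968). Over 11 libraries Klhl21 (0.976) and G6pdx (0.972) were again the closest.

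The other genes of these pathways gave few calls. None of 8 other PRC1.6 subunits (Ring1, Rnf2, Rybp, Yaf2, Tfdp1, Wdr5, Hdac1 and Hdac2) was called in any of the 5 comparisons by edgeR on all 12 libraries. With KO RA replicate 3 left out, Tfdp1, the dimer partner of E2F proteins, Wdr5 and the deacetylase Hdac1 were called lower in KO RA against KO NO, 3 of 8 beside 7.54% of all genes, with log2 fold changes of −0.50, −0.37 and −0.80. Hdac1 was then also called lower in WT RA against WT NO, at −0.51 and an edgeR adjusted p of 0.0125. Of 15 other H3K9 methylation and HP1 genes, Pphln1, a subunit of the HUSH complex that works with SETDB1, was the only one called on all 12 libraries. It went from 132, 123 and 147 CPM in KO NO to 73.8, 69.7 and 59.7 CPM in KO RA, a log2 fold change of −0.98 with a standard error of 0.24 and an edgeR adjusted p of 0.0394, or −0.91 and 0.0156 without KO RA replicate 3. Without that library 4 of the 15 were called lower in KO NO against WT NO (8.78% of all genes were called in either direction): Uhrf1, which reads hemimethylated DNA, at −1.14, Wiz, a partner of EHMT1 and EHMT2, at −0.70, Daxx at −0.62 and Chd4 at −0.60. Between KO RA and WT RA edgeR then called Suv39h1 higher and Cbx1 and Uhrf1 lower. Pphln1, Morc2a and Daxx were called lower in WT RA against WT NO, and Wiz higher and Cbx1 and Pphln1 lower in KO RA against KO NO. Over all genes, that fit called 9.85% in KO RA against WT RA. It called 10.8% in WT RA against WT NO and 16% in KO RA against KO NO. On all 12 libraries, 5.48% were called in KO RA against KO NO.

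None of 10 H3K9 demethylase genes was called on all 12 libraries. Their median log2 fold change was 0.31 in KO NO against WT NO, with 8 of 10 above 0, −0.24 in KO RA against WT RA, with 2 of 10 above 0, −0.02 in WT RA against WT NO and −0.54 in KO RA against KO NO. The medians without KO RA replicate 3 were 0.32, 0.12, −0.01 and −0.15. Kdm4a was then called for KO NO against WT NO (higher), Kdm3a, Kdm4b and Kdm7a higher in WT RA against WT NO, and 3 genes higher (Kdm3a, Kdm4b and Kdm7a) and 3 lower (Kdm1a, Jmjd1c and Kdm4c) in KO RA against KO NO. Over all genes, the same fit called 8.78%, 10.8% and 16% in these comparisons, in either direction.

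Among 22 other Polycomb genes, 1 was called higher and 1 lower on all 12 libraries, both in KO RA against KO NO. Bmi1 (Pcgf4), the ring finger protein of canonical PRC1, went from 8.16, 9.80 and 9.82 CPM to 23.8, 28.1 and 63.1 CPM, with a log2 fold change of 2.05 and an edgeR adjusted p of 0.0123, or 1.48 and 0.00394 without KO RA replicate 3. Cbx7, a chromodomain protein of canonical PRC1, went from 29.0, 32.5 and 31.7 CPM to 10.7, 15.3 and 4.95 CPM, with a log2 fold change of −1.58 and an adjusted p of 0.0193, or −1.27 and 0.00137 without that library. Without it Phc2 was called higher and Suz12 lower there as well, 4 of the 22 beside 16% of all genes. For KO NO against WT NO, Ezh1 and Mtf2 were then called higher, Phc2 higher and Cbx7 lower in KO RA against WT RA and in the interaction, and Bmi1 higher and Cbx2 lower in WT RA against WT NO. Among 17 E2F and MAX-network genes, Mxd4, which competes with MYC for MAX, was the one called on all 12 libraries. Its levels were 5.35, 5.33 and 4.58 CPM in KO NO and 13.8, 9.19 and 11.4 CPM in KO RA, a log2 fold change of 1.17 and an edgeR adjusted p of 0.0360, or 1.16 and 0.0186 without KO RA replicate 3. Without that library Mycn was called higher and Tfdp2 and Mlx lower in this comparison too, Tfdp2 rose and E2f3 fell past the threshold in KO NO against WT NO, Mxi1 higher and E2f7 lower in WT RA against WT NO, and none of the 17 in KO RA against WT RA. Over all genes, that fit called 8.78% in KO NO against WT NO, 10.8% in WT RA against WT NO and 9.85% in KO RA against WT RA. In the interaction it called 1.34%, and on all 12 libraries 5.48% were called in KO RA against KO NO.

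Some germline genes differed more between KO and WT than any of the repressors. Their list was drawn up with earlier results of these data known, so the calls in it are a description and not a test. Of 32 listed, 11 passed the filter on low counts, several of them only through their levels in KO, and 5 were at or below 3 counts in every library. In KO NO against WT NO, edgeR called 5 higher, beside 0.788% of all genes: Stag3, Hormad2, Zcwpw1, Rec8 and Tuba3a. Stag3 was at 0.141, 0.406 and 0.305 CPM in WT NO and at 22.5, 25.3 and 27.1 CPM in KO NO, with an edgeR adjusted p of 0.000255. Hormad2, of the meiotic chromosome axis, was at 0.458, 0.111 and 0.0915 CPM and at 10.1, 9.09 and 11.1 CPM. Zcwpw1, a reader of histone methylation in meiosis, was detected in WT NO too, at 26.9, 17.8 and 12.9 CPM, and at 128, 143 and 144 CPM in KO NO.

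Rec8, a meiotic cohesin subunit, was at or below 3 counts in each WT NO library and at 5.99, 5.15 and 4.07 CPM in KO NO. Tuba3a was at 0.0704, 0.0739 and 0.213 CPM and at 0.994, 2.31 and 2.15 CPM, and its near-identical copy Tuba3b makes its counts uncertain. With KO RA set against WT RA, 3 of these were called higher (Stag3, Hormad2 and Zcwpw1), beside 0.885% of all genes. No listed germline gene was called in WT RA against WT NO or in KO RA against KO NO. Of the listed genes that did not pass the filter, Ddx4, the germ cell RNA helicase, reached 1.19 CPM at most and Slc25a31 0.396 CPM. Both values were in KO RA replicate 3. Of those tested and not called, Tdrkh, a Tudor-domain protein of the piRNA pathway, was at 38.2 to 127 CPM over the 12 libraries. Tdrd1 was at 0 in every WT library and at 1.96, 0.414 and 0.419 CPM in KO NO. All 11 genes tested had a log2 fold change above 0 in KO NO against WT NO, several having passed the filter only through KO. Of the germ cell markers outside this list, Dppa3 was at 0.528, 0.813 and 0.396 CPM in WT NO and at 14.9, 3.58 and 3.15 CPM in KO NO, a log2 fold change of 3.64 with an edgeR adjusted p of 0.232, or 0.0152 without KO RA replicate 3. Nanos3 was at 3.59, 1.74 and 0.671 CPM in WT NO and at 14.7, 8.17 and 3.99 CPM in KO NO, with an adjusted p of 0.240, or 0.0632 without that library. Prdm1, which other tissues use as well, was at 26.7, 24.97 and 4.63 CPM in WT NO and at 29.1, 23.1 and 25.1 CPM in KO NO. The part of these markers in the germline gene values was not tested. In KO RA, Stag3 was at 26.7, 23.9 and 9.80 CPM and Hormad2 at 7.12, 7.79 and 12.4 CPM. Zcwpw1 was at 78.1, 80.3 and 179 CPM there, Rec8 at 6.04, 3.51 and 1.39 CPM and Tuba3a at 0.676, 1.23 and 0.495 CPM. Whether these levels go with those of E2f6 was not tested. Of the 5 genes called, the promoters of Stag3 and Tuba3a held one of the searched sequences and those of Hormad2, Zcwpw1 and Rec8 held neither.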

How the data were processed

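Bulk mRNA-Seq of 12 NE-4C libraries was analysed. Reads were aligned with STAR and quantified with Salmon by the authors in nf-core/rnaseq at default settings on GRCm39, and estimated counts were deposited for each gene. Among 3851 genes detected in only 1 library these counts were lower the longer the transcript (Spearman correlation −0.749), as for counts scaled from TPM. Columns of untreated libraries are headed without NO and were matched to the sample records by genotype and replicate number.

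After rounding to whole counts, edgeR 4.0.16 (R 4.3.3) was applied: filterByExpr with the 4 groups, TMM factors and one robust quasi-likelihood model with a coefficient per group over all 12 libraries. The code was first run on simulated counts with less spread than fitted here (common dispersion 0.215) and no library that stood apart. That run checks the code and not its performance on these libraries. Calls needed an adjusted p under 0.05 (Benjamini-Hochberg over the 16502 genes tested). Standard errors came from the fold change on the log2 scale and its F statistic. Groups were apart when no library of one overlapped the other. The floor was 3 counts per library and covers counting error only. The p-values measure the spread between passages. No 2 libraries held the same values. An exact permutation test of 3 libraries against 3 cannot go below 0.1, so none was used.

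The members and all lists were chosen with earlier results of these data known. All members are named, and of each other list up to 4 called genes per comparison. Pathway genes called only without KO RA replicate 3, germline genes not called, and markers were named after their values were seen. Positions and promoters came from GENCODE M39 (GRCm39), which matched 98.8% of gene IDs, read with Python 3.11.15. Figures were drawn with matplotlib 3.10.9. Alternatives were DESeq2 1.42.0, its size factors, other filters, fewer libraries, limma-voom (limma 3.58.1) with sample weights, the replicate number as a block, and each library left out. Levels were also computed without TMM factors.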

Additional observations from a re-analysis of the deposited data

How the results depend on the processing

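Of 980 recomputed log2 fold changes of the 10 genes, 904 kept their direction and their side of the threshold, 20 newly passed it, 4 no longer passed it and 52 changed sign, and no value that changed sign passed the threshold under any alternative. The number of repressor genes called in KO NO against WT NO, 0 as reported, became 1 with DESeq2 on all 12 libraries (E2f6, 6.15% of all genes called), 4 with DESeq2 on the libraries of these groups (E2f6, L3mbtl2, Ehmt2 and Setdb1, 13.2% of all genes), 1 with edgeR on these libraries (E2f6, 4.71%) and 3 with limma-voom and sample weights (E2f6, L3mbtl2 and Ehmt2, 21.6%), and was 0 to 2 with 1 library left out. In KO RA against WT RA, 0 became 1 with limma-voom (Ehmt2, 18.1% of all genes) and was 0 to 1 with 1 library left out. In WT RA against WT NO, 0 became 1 with DESeq2 on these groups (12.8% of all genes) and 1 with limma-voom (21.6%), L3mbtl2 in both, and was 0 to 1 with 1 library left out. In each of these 3 comparisons the higher count came without KO RA replicate 3. In KO RA against KO NO, 1 became 2 with DESeq2 on all 12 libraries (E2f6 and L3mbtl2, 15.9% of all genes), 0 with edgeR on these groups (1.28%) and 4 with limma-voom (E2f6, L3mbtl2, Pcgf6 and Setdb1, 27.5%), and was 0 to 1 with 1 library left out, 0 without any one of the KO NO libraries. The interaction stayed at 0 in every fit. The cause was not tested. Without KO RA replicate 3, called germline genes numbered 7 in KO NO against WT NO, 6 in KO RA against WT RA and 1 in KO RA against KO NO (Zcwpw1, lower).

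Signs that changed belonged to small or single-library differences. With limma-voom, the log2 fold change was −0.20 for Trim28 in KO NO against WT NO. Between KO RA and WT RA it was 0.14 for Mga, 0.40 for Ehmt1, 0.12 for Setdb1 and −0.055 for Cbx3. It was −0.18 for Max in WT RA against WT NO. Between KO RA and KO NO it was 0.032 for Max, 0.34 for Ehmt1 and 0.19 for Ehmt2, and in the interaction 0.21 for Max. E2f6 in KO RA against WT RA was 0.045 with DESeq2 on all libraries, 0.044 on these groups and 0.054 with its size factors. Ehmt1 was 0.013 there with at least 10 counts in every library, and −0.016 in the interaction with no filter.

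With 1 library left out, the values in KO NO against WT NO ran from −0.21 to 0.077 for Ehmt1 and from −0.28 to 0.27 for Trim28. Between KO RA and WT RA they ran from −0.15 to 0.15 for E2f6, −0.47 to 0.13 for Mga, −0.043 to 0.14 for Pcgf6, −0.38 to 0.46 for Ehmt1, −0.50 to 0.15 for Setdb1 and −0.059 to 1.66 for Cbx3. In WT RA against WT NO they ran from −0.23 to 0.17 for Max, −0.19 to 0.027 for Pcgf6, −0.43 to 0.12 for Trim28 and −0.20 to 0.12 for Cbx3. Between KO RA and KO NO they ran from −0.47 to 0.045 for Max, −0.43 to 0.41 for Ehmt1 and −0.40 to 0.22 for Ehmt2, and in the interaction from −0.48 to 0.027 for Max and −0.35 to 0.49 for Ehmt1.

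With the replicate number as a replicate block, 1 repressor was called in KO RA against KO NO (L3mbtl2) and 0 in each other comparison, as without it. The sign changed for Trim28 in WT RA against WT NO (0.032) and for Ehmt1 in the interaction (−0.10). Over 18 pairs of libraries with the same number the correlation of deviations was −0.26 to 0.11, above 0.1 in 2. Over 36 pairs with different numbers it was −0.22 to 0.25, above 0.1 in 9. The deviations in KO RA were taken from a mean that includes replicate 3, so these values cannot decide whether the numbers pair the libraries.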
